A study of Mus musculus with 12 samples.

Results

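The genes described here encode 9 inhibitors of the growth kinase complex mTORC1 and of the translation step it controls. They are *Ddit4* and *Ddit4l*, the sestrins *Sesn1*, *Sesn2* and *Sesn3*, the 4E-BPs *Eif4ebp1*, *Eif4ebp2* and *Eif4ebp3*, and *Deptor*. They were chosen by family, as 9 of the 47729 genes in the count table, with earlier results of these data known. *Ddit4* was already known to be among the genes most clearly higher in stress, so its level in that comparison is given as a description without a p-value.

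RNA was sequenced from ISCs, the Lgr5-EGFPhi cells sorted from small intestinal crypts of mice aged 8 to 10 weeks that carry the *Lgr5-EGFP-IRES-creERT2* allele, which places the fluorescent protein and an inducible Cre under the *Lgr5* locus. The sort kept EpCAM+ cells that were CD31-, CD45-, TER119- and CD24-. All 4 groups carried this allele and had 3 libraries each. Ctrl mice were not restrained, and stress mice were restrained for 3 h on 1 day. In the restraint procedure as described by the authors, control mice went without food and water for the same time. Vehicle mice received an intraperitoneal injection of a cyclodextrin solution, and CORT mice received corticosterone, the main glucocorticoid of rodents, in that solution at 5 mg/kg. The stress libraries are numbered 1+2, 3 and 4+5+6, and the joined numbers read as pools of mice. Mice of both sexes were used, and the sex behind each library was not analysed here. The labels do not say whether the other libraries each come from 1 mouse, so p-values measure the spread between these libraries.

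mTORC1 is a kinase complex on the lysosome surface that promotes protein synthesis when amino acids, energy and growth factors are sufficient. DDIT4 (REDD1) and its relative DDIT4L act through the TSC complex, which switches off the GTPase RHEB, the direct activator of mTORC1. Sestrins bind the GATOR2 complex and keep the Rag GTPases from recruiting mTORC1 when leucine is low, DEPTOR binds mTOR itself, and the 4E-BPs hold the cap-binding factor eIF4E until mTORC1 phosphorylates them. In the intestine mTORC1 activity is known to respond to feeding and to matter for regeneration of the crypt. RNA levels were measured here, and neither the proteins nor their phosphorylation.

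The summed level of 6 ISC markers was 10671 to 13927 CPM (counts scaled to library size, here with TMM factors over the 12 libraries) in every library. Within this sum *Ascl2* was lower in stress, by a log2 fold change of -1.23, and *Ascl2*, *Lgr5* and *Smoc2* were lower in CORT. Of other cell types, 5 of 6 blood markers and 3 of 6 stromal and endothelial markers were at or under 3 read pairs in all 12. Enterocyte markers summed to 442 to 485 CPM in Ctrl and 695 to 2005 CPM in stress, with 5 of 6 higher in stress, against 383 to 432 CPM in vehicle and 474 to 521 CPM in CORT. Paneth cell markers summed to 136 to 173 CPM in Ctrl and 169 to 263 CPM in stress, with 1 of 6 higher in stress, and to 186 to 211 CPM in vehicle and 104 to 116 CPM in CORT, with 4 of 6 lower in CORT. Goblet cell markers summed to 521 to 666 CPM in Ctrl and 501 to 1351 CPM in stress, with 1 of 6 higher in stress. They summed to 444 to 638 CPM in vehicle and 411 to 754 CPM in CORT, with 0 called. Among the stress libraries, 4+5+6 was highest and 3 lowest for both enterocyte and goblet markers. Enteroendocrine markers summed to at most 65.1 CPM and tuft markers to at most 11.2 CPM in any library. Fewer cells of a type and less RNA per cell cannot be told apart in such bulk samples, and the part of these markers in the results that follow was not tested. Total estimated counts were 15934907 to 31280267 in Ctrl, stress and vehicle libraries and 29426183 to 69533214 in CORT libraries.

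In Ctrl ISCs the order of the genes, compared per transcript length in the authors' FPKM (mean ± SD, n = 3), was led by *Ddit4* at 82.7 ± 12.4. *Eif4ebp2* followed at 56.3 ± 3.10 and *Eif4ebp1* at 26.2 ± 1.28. *Deptor* had 14.8 ± 1.15 and *Sesn1* 13.0 ± 0.859, and the libraries of these neighbours overlapped. *Sesn3* at 7.80 ± 0.554 and *Sesn2* at 7.49 ± 0.895 overlapped as well, *Eif4ebp3* reached 2.15 ± 0.896, and *Ddit4l* was lowest at 0.285 ± 0.131. *Sesn1* ranked 4 and *Eif4ebp3* ranked 6 in both stress and CORT, against 5 and 8 in both Ctrl and vehicle. In stress each overlapped the gene ranked below it, *Deptor* and *Sesn3*. In CORT *Sesn1* was at 40.0 ± 9.28 FPKM and overlapped *Eif4ebp1* at 41.2 ± 5.63. *Eif4ebp3* was at 9.33 ± 0.460, above *Sesn3* at 4.61 ± 0.507 without overlap, and *Ddit4* led with 418 ± 182.

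Genes whose adjusted p was below 0.05 in edgeR's quasi-likelihood test, fitted across all genes, are described as higher or lower. By this rule 3 of the 9 genes were higher in stress than in Ctrl (*Ddit4*, *Sesn1* and *Eif4ebp3*), where 1.3% of the 13722 genes tested were higher, and 1 was lower (*Sesn2*), where 0.59% of all genes were lower. In CORT against vehicle the same 3 genes were higher and none was lower by edgeR, against 3.64% and 4.5% of 14656 genes. DESeq2 also called none of the 9 lower in CORT. An unadjusted p below 0.05 in edgeR was found for 7 of the 9 genes in stress and 4 in CORT. The share of all genes below that value was not computed. At more than 2-fold, 2 of the 9 were higher in stress (*Ddit4* and *Eif4ebp3*), as were 0.612% of all genes, and 3 in CORT, as were 1.13%. All 9 genes passed the filter on low counts in each comparison. The median log2 fold change of the 9 genes was 0.23 in stress and 0.15 in CORT, beside -0.0028 and 0.014 over all genes tested. The counts in stress include *Ddit4*, which was known beforehand to be among the genes most clearly higher there. Because the genes were listed with results of these data known, nothing is read from these shares.

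**Figure D1:**
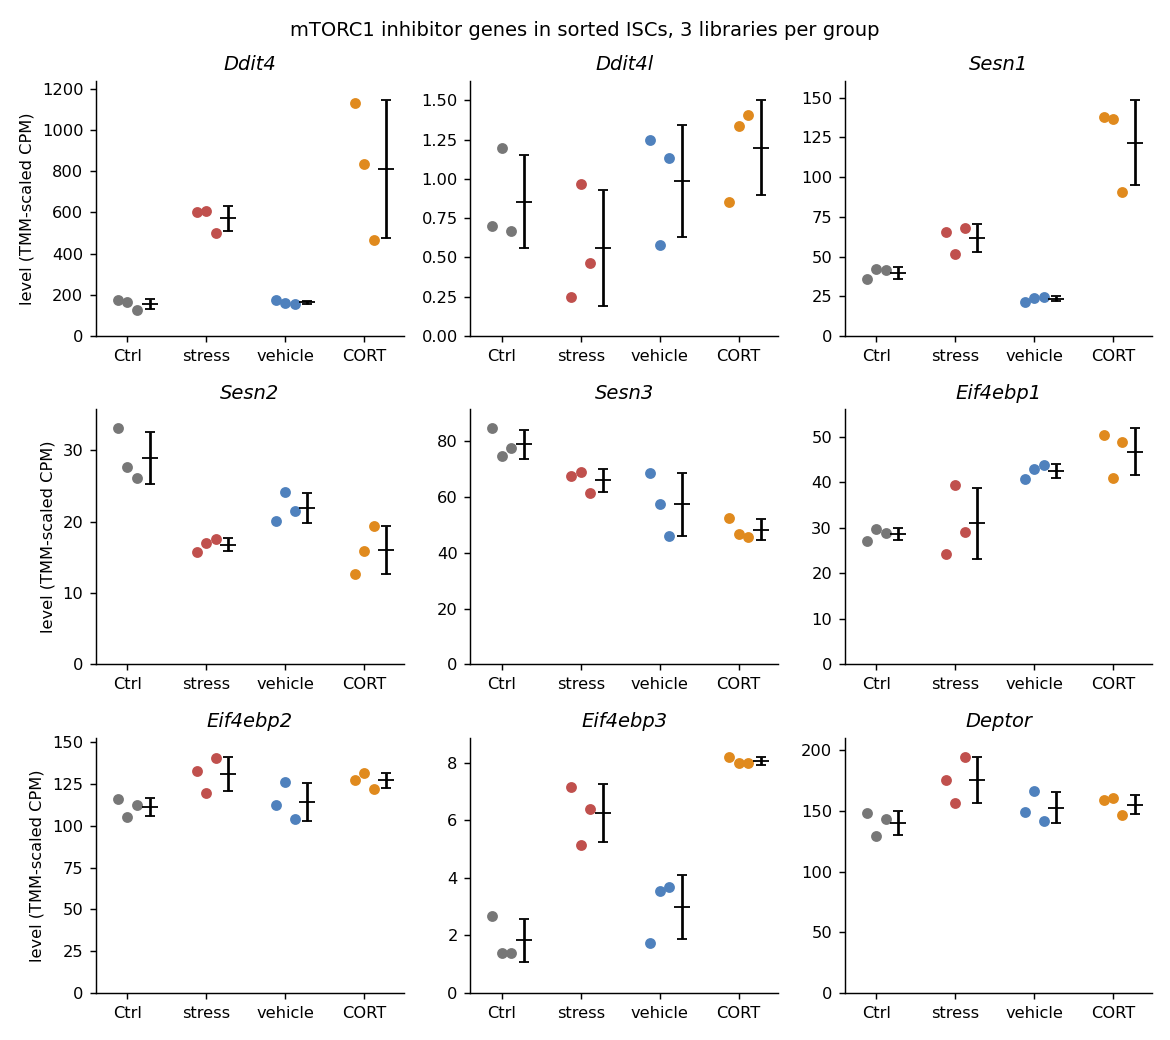
Level of each of the 9 genes in every library, in TMM-scaled CPM on linear axes that start at 0, with the 2 control groups each left of their treated group; points are the 3 libraries of a group, and the bar beside them is the mean ± SD. For *Ddit4*, *Sesn1* and *Eif4ebp3* all treated libraries lie above all libraries of their own control group, whereas *Deptor* in CORT lies among the vehicle libraries.

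*Ddit4* is a stress-inducible gene that glucocorticoids and low oxygen are known to switch on in other tissues. Its level was 172, 167 and 126 CPM in Ctrl and 603, 608 and 501 CPM in stress. The lowest stress library thus lay well above the highest Ctrl library, and the change was 3.68-fold (log2 fold change 1.88, standard error 0.13). In vehicle the level was 173, 158 and 157 CPM, and in CORT it was 1132, 837 and 465 CPM. Again the groups did not overlap, and *Ddit4* rose 4.98-fold (log2 fold change 2.32, standard error 0.26, adjusted p = 0.00117).

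The CORT libraries were further apart in *Ddit4* than those of the other groups, with an SD of 335 CPM on a mean of 811 CPM. CORT 5, the lowest of them for *Ddit4* and *Sesn1*, also had the smallest total count of the group, 29426183 against 59689732 and 69533214. The part of depth in this spread was not tested. Vehicle and Ctrl did not differ detectably in *Ddit4* (log2 fold change 0.07, standard error 0.11, adjusted p = 0.886). The stress response minus the CORT response was -0.44 on the log2 scale (standard error 0.32, adjusted p = 0.640), so a difference between both responses was not detectable with 3 libraries per group.

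*Ddit4l*, whose protein is the close relative of DDIT4, was near the limit of detection. Its estimated counts were 4 to 20 in Ctrl and stress and 10 to 35 in vehicle, where 12 counts stand for 3 read pairs, and 41 to 79 in the deeper CORT libraries. Its levels of 0.249 to 1.41 CPM overlapped in all comparisons made. A change of this gene could not be resolved at this depth, with adjusted p = 0.745 in stress and 0.796 in CORT.

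The upstream sequences of *Ddit4*, *Sesn1* and *Sesn2* are shown, the members called in stress other than *Eif4ebp3*, for which none is printed. *Sesn1* has another RefSeq start, whose window lies in an annotated exon and is not shown. They are taken from RefSeq (GRCm38.p6, the build called mm10), run 5′ to 3′ on the strand of the gene and end before the first annotated exon base of GENCODE M21. Capitals mark CCAAT or its reverse complement ATTGG, the CCAAT box, and ACGTG or CACGT, the core of the hypoxia response element.

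*Ddit4*, chr10:59951835-59952020, minus strand: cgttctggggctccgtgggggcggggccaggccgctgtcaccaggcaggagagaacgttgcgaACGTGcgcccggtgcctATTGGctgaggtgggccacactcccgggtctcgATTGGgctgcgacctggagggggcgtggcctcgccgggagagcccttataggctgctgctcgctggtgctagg
*Sesn1*, chr10:41887189-41887438, plus strand: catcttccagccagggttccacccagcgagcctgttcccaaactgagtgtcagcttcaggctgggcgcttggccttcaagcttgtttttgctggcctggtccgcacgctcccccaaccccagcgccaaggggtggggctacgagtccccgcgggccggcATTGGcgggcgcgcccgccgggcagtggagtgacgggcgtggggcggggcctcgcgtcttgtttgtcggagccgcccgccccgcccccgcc
*Sesn2*, chr4:132510502-132510706, minus strand: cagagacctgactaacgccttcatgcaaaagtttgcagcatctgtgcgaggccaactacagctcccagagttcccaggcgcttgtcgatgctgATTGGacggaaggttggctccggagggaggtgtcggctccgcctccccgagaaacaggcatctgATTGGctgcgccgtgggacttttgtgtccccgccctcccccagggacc

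Of the 9 genes, 6 had such a window in the table, and their 250 bases before the RefSeq start were searched on both strands for 5 motifs. A CCAAT box was present in 4 of the 6 genes (*Ddit4*, *Sesn1*, *Sesn2* and *Sesn3*), and 34.5% of 27025 genes hold one in a window of this length. The letters ACGTG or CACGT were found in *Ddit4* and *Eif4ebp2*, against 16.6% of genes. In *Ddit4* this core began at position -187 from the RefSeq start and the CCAAT boxes at -170 and -137. The glucocorticoid receptor half-site AGAACA (in 16.2% of genes), the FoxO site GTAAACA (3.09%) and the TATA box TATAAA (13.0%) were in none of the 6 genes on either strand, which says only that these letters are not in these windows.

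*Sesn1*, a sestrin known as a target of p53 and FoxO factors, showed the largest fold change of the 9 genes in CORT. It was only just above that of *Ddit4* (log2 fold change 2.32, standard error 0.26). Without CORT 5 the order was reversed, with 2.60 for *Ddit4* and 2.55 for *Sesn1*. The level of *Sesn1* was 21.6, 24.0 and 24.6 CPM in vehicle and 138, 137 and 90.7 CPM in CORT. All CORT libraries lay far above all vehicle libraries, a 5.19-fold rise (log2 fold change 2.38, standard error 0.16, adjusted p = 0.0001). In Ctrl it was 35.6, 42.1 and 41.3 CPM and in stress 65.6, 51.5 and 67.9 CPM. These groups did not overlap either, and the change was 1.56-fold (log2 fold change 0.64, standard error 0.13, adjusted p = 0.0358). This call was lost without any of 5 of the 6 libraries in turn, at adjusted p = 0.115 to 0.181, without the filter on low counts (0.132) and with limma on log2(FPKM + 1) and log2(FPKM + 0.1) (0.0950 and 0.0883).

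The *Sesn1* response was smaller in stress than in CORT, with a difference of -1.74 on the log2 scale (standard error 0.22, adjusted p = 0.00434), where 0.194% of 14415 genes had a smaller stress response by this test. It was the only one of the 9 genes past the threshold in this comparison, and none passed it in the other direction by edgeR (DESeq2 also called none), with 2 of 9 at an unadjusted p below 0.05. The control groups of the responses differed in this gene: vehicle was lower than Ctrl by -0.76 on the log2 scale (standard error 0.12, adjusted p = 0.0190) without overlap. The CORT libraries, at 90.7 CPM and above, also lay above the highest stress library at 67.9 CPM, a difference that was not tested.

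*Sesn2* encodes the sestrin best known as a leucine sensor and is a target of the stress factor ATF4. It moved in the other direction, from 33.1, 27.6 and 26.1 CPM in Ctrl to 15.8, 17.0 and 17.6 CPM in stress. No stress library reached the Ctrl range, and *Sesn2* fell by 0.78 on the log2 scale in stress (standard error 0.14, adjusted p = 0.0255). In vehicle it was 20.1, 24.1 and 21.6 CPM and in CORT 12.7, 15.95 and 19.4 CPM. These groups did not overlap by a small margin, and the log2 fold change of -0.46 (standard error 0.17, adjusted p = 0.146) did not pass. The call in stress was lost without any of the same 5 libraries, at adjusted p = 0.0636 to 0.142, without the filter (0.0834) and with both limma fits (0.0834 and 0.0736).

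*Sesn3*, a sestrin known as a FoxO target, was 84.6, 74.6 and 77.6 CPM in Ctrl and 67.6, 68.9 and 61.4 CPM in stress. The groups did not overlap, with a log2 fold change of -0.26 (standard error 0.09, adjusted p = 0.211). It was 68.6, 57.6 and 45.9 CPM in vehicle and 52.5, 46.7 and 45.6 CPM in CORT, and these overlapped (log2 fold change -0.25, standard error 0.14, adjusted p = 0.319).

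The make-up of the sestrin RNA therefore differed between groups. Per transcript length, *Sesn1* made up 46.1% ± 3.82 of the summed FPKM of the 3 sestrins in Ctrl and 65.4% ± 4.04 in stress (SD, n = 3). In vehicle its share was 39.4% ± 5.74 and in CORT 81.8% ± 4.65. No stress or CORT library had a *Sesn1* share as low as any Ctrl or vehicle library. The *Sesn2* share was 26.4% ± 2.69 in Ctrl and 13.8% ± 1.56 in stress, and that in vehicle, 30.3% ± 1.61, compared with 8.56% ± 3.39 in CORT. The sum of the 3 sestrins was 28.3 ± 0.586 FPKM in Ctrl and 31.4 ± 3.53 FPKM in stress, with overlap, and 18.9 ± 1.02 FPKM in vehicle and 48.6 ± 8.87 FPKM in CORT, without overlap. These shares rest on the same libraries as the fold changes and were not tested.

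**Figure D2:**
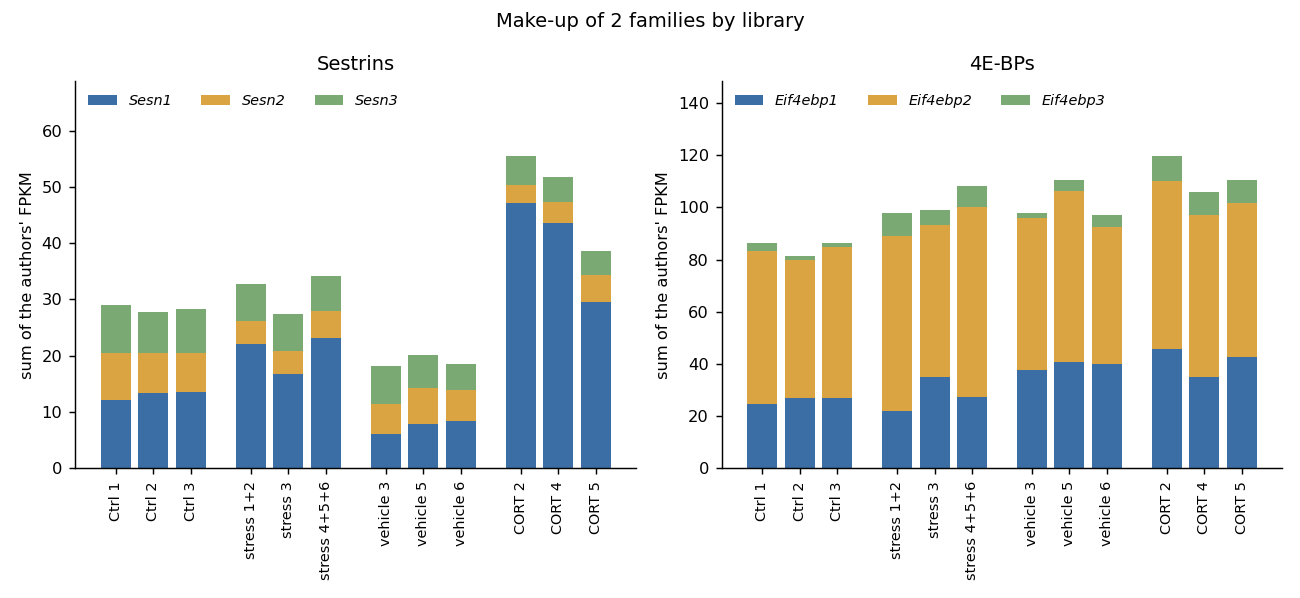
Stacked bars of the authors' FPKM for the 3 sestrins (left) and the 3 4E-BPs (right) in each of the 12 libraries, on linear axes that start at 0. *Sesn1* makes up the greater part of the sestrin sum in every stress and CORT library, and *Eif4ebp2* the greater part of the 4E-BP sum in every library.

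*Eif4ebp1* and *Eif4ebp2* encode the 4E-BPs usually abundant in tissues. *Eif4ebp2* was 116, 106 and 113 CPM in Ctrl and 133, 120 and 140 CPM in stress, and all stress libraries lay above Ctrl, with a log2 fold change of 0.23 (standard error 0.09, adjusted p = 0.251). It was 113, 126 and 104 CPM in vehicle and 128, 132 and 122 CPM in CORT, with overlap (log2 fold change 0.15, standard error 0.09, adjusted p = 0.331). *Eif4ebp1* was 27.2, 29.8 and 28.9 CPM in Ctrl and 24.2, 39.5 and 29.2 CPM in stress. The stress libraries lay on both sides of Ctrl, at a log2 fold change of 0.11 (standard error 0.17, adjusted p = 0.822). In vehicle it was 40.7, 43.0 and 43.7 CPM and in CORT 50.4, 40.9 and 49.0 CPM, which overlapped (log2 fold change 0.13, standard error 0.10, adjusted p = 0.475).

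*Eif4ebp3*, the rarest of the 4E-BPs, was the member of this family that was higher after both treatments. Its level was 2.69, 1.37 and 1.40 CPM in Ctrl and 7.15, 5.15 and 6.40 CPM in stress. The groups were well separated, by 3.41-fold (log2 fold change 1.77, standard error 0.37, adjusted p = 0.0444). In vehicle it was 1.72, 3.55 and 3.69 CPM and in CORT 8.20, 7.97 and 7.98 CPM. The CORT libraries lay close together and above all vehicle libraries, and *Eif4ebp3* rose 2.66-fold (log2 fold change 1.41, standard error 0.28, adjusted p = 0.0162).

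These values rest on few reads, 23 to 115 estimated counts per library in Ctrl and stress. The call in stress was lost without any of the same 5 libraries, at adjusted p = 0.0680 to 0.177, and without the filter (0.122), and the call in CORT without CORT 4 (adjusted p = 0.0610) or CORT 5 (0.0508). *Eif4ebp3* lies within *Ankhd1* on the same strand in the authors' annotation, so reads of the larger gene may be counted for it. In GENCODE M21 another protein-coding gene on that strand, *AC115631.1*, shares 501 of the 744 exonic bases of *Eif4ebp3*. It has no counts here, so its part was not tested. *Ankhd1* stood at 93.9 to 125 CPM in all libraries, with log2 fold changes of 0.14 in stress (adjusted p = 0.598) and 0.10 in CORT (adjusted p = 0.646). *Eif4ebp3* made up 2.53% ± 1.003 of the summed 4E-BP FPKM in Ctrl and 7.36% ± 1.36 in stress, and 3.54% ± 1.27 in vehicle and 8.32% ± 0.132 in CORT (SD, n = 3).

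*Deptor*, which encodes the inhibitory subunit bound to mTOR itself, was 148, 129 and 143 CPM in Ctrl and 176, 157 and 195 CPM in stress. All stress libraries were above Ctrl, with a log2 fold change of 0.33 (standard error 0.10, adjusted p = 0.149), and without stress 3 the gene passed at adjusted p = 0.0309. It was 149, 167 and 142 CPM in vehicle and 159, 160 and 146 CPM in CORT. These overlapped fully, with a log2 fold change of 0.02 (standard error 0.08, adjusted p = 0.904). Exons of the antisense gene *Gm9920* overlap it over 303 bases, with at most 81 estimated counts in any library.

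**Figure D3:**
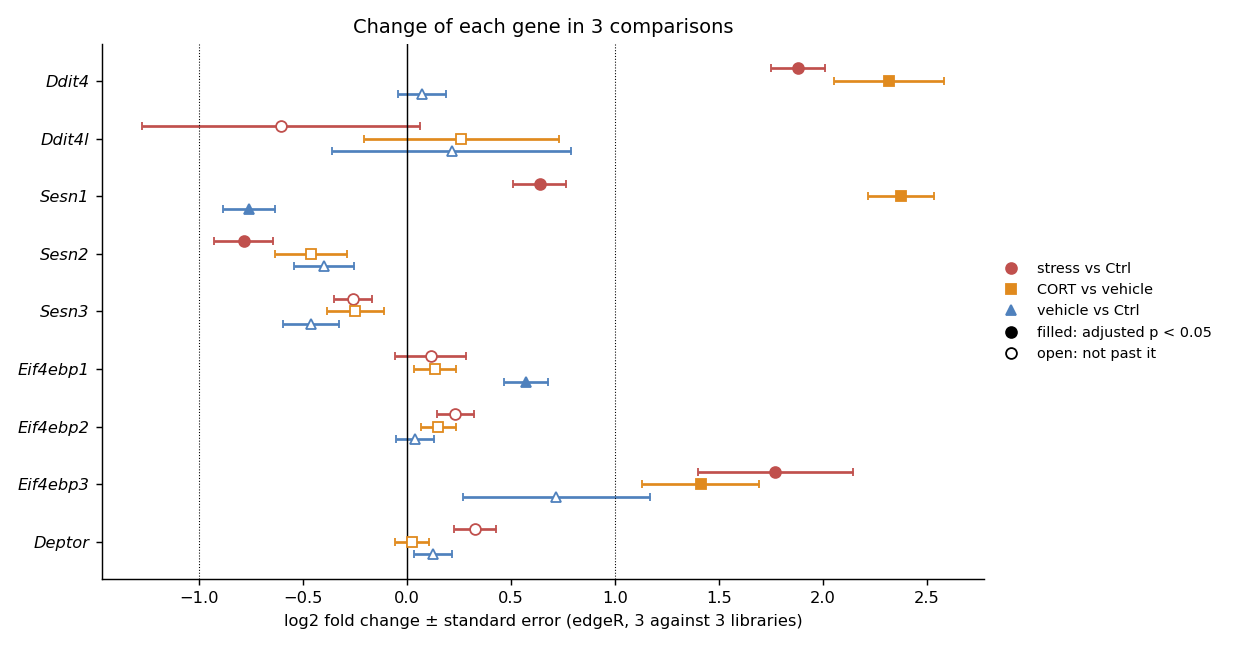
Log2 fold change ± standard error (edgeR) of each gene for stress against Ctrl (circles), CORT against vehicle (squares) and vehicle against Ctrl (triangles). Filled symbols passed an adjusted p of 0.05 and dotted lines mark a 2-fold change. The symbol of *Ddit4* in stress is a description, because that result was known beforehand. *Sesn1* stands at 0.64 in stress, 2.38 in CORT and -0.76 between the control groups.

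Counted as libraries that do not overlap at all, 7 of the 9 genes separated stress from Ctrl, as did 20.4% of all genes tested, 4 of 9 separated CORT from vehicle, as did 28.7%, and 4 of 9 separated vehicle from Ctrl, as did 16.3%. The comparison of both control groups gives the scale of differences without restraint or corticosterone. There *Eif4ebp1* was higher in vehicle (log2 fold change 0.57, standard error 0.11, adjusted p = 0.0374) and *Sesn1* was lower, where 0.447% of 13642 genes were higher and 0.352% lower. *Sesn3* had a log2 fold change of -0.46 (standard error 0.13, adjusted p = 0.180), *Sesn2* of -0.40 (standard error 0.14, adjusted p = 0.297) and *Eif4ebp3* of 0.72 (standard error 0.45, adjusted p = 0.627). The call of *Eif4ebp1* was lost without any one Ctrl library, vehicle 5 or vehicle 6, at adjusted p = 0.0883 to 0.210, without the filter (0.0562) and with all 12 libraries in the fit (0.135). The call of *Sesn1* was lost without any one Ctrl library or vehicle 6, at adjusted p = 0.0591 to 0.103, and with both limma fits (0.0774 and 0.0739). Injection, food deprivation and any difference in handling or sequencing cannot be told apart between these groups. The immediate early genes, whose RNA follows handling within minutes, summed to 531 to 705 CPM in Ctrl and 276 to 339 CPM in vehicle, and their part in these differences was not tested.

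The genes whose profile over the 12 libraries lay closest to that of *Ddit4* were *Tsc22d3*, *N4bp2l1*, *Herpud1*, *Ypel2* and *Nfil3*. The measure was the root mean square distance of centred log2 CPM, which was 0.246 for *Tsc22d3* and 0.397 for *Nfil3*, against a median of 1.10 over 13627 genes. *Tsc22d3*, the glucocorticoid-induced leucine zipper, averaged 34.8 CPM in Ctrl and 101 CPM in stress, and 31.7 CPM in vehicle and 153 CPM in CORT. *Herpud1*, a gene of endoplasmic reticulum protein degradation, averaged 95.4, 362, 80.7 and 559 CPM in the same order. The other 8 inhibitors were left out of this ranking, so it does not show how close they lay to *Ddit4*.

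Of 71 other genes of the mTOR pathway in 8 lists, 68 were tested in stress. There *Pdcd4* was the 1 gene higher by edgeR, DESeq2 called 2 higher, and neither tool called any lower. Of all genes tested, 1.3% were higher and 0.59% lower by edgeR. At an unadjusted p below 0.05 in edgeR, 7 of the pathway genes were higher and 5 lower. *Pdcd4* encodes an inhibitor of the helicase eIF4A that is degraded after mTORC1 signalling, and it went from 351 ± 48.2 to 516 ± 15.6 CPM (log2 fold change 0.56, standard error 0.10, adjusted p = 0.0282). In CORT 5 of the 70 tested genes were higher and 5 lower, beside 3.64% higher and 4.5% lower of all genes. Of the 70 tested genes, 2 were called and higher by more than 2-fold, beside 1.13% of all genes. The median log2 fold change of the pathway genes was -0.031 in stress and -0.0051 in CORT. None of the mTORC1 core subunits, the mTORC2 subunits or the TSC complex and Rheb was called by edgeR or DESeq2 in stress, CORT or between the control groups, where 2, 2 and 0 of them had an unadjusted p below 0.05. Their log2 fold changes in CORT lay between -0.34 and 0.46.

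Among the genes that changed in CORT, *Fnip2*, a partner of folliculin in amino acid sensing, went from 18.9 ± 3.16 to 47.9 ± 4.61 CPM (log2 fold change 1.34, standard error 0.14, adjusted p = 0.000719). *Pdcd4* went from 315 ± 9.58 to 623 ± 23.8 CPM (0.98, standard error 0.08, adjusted p = 0.000193). *Lpin1*, a phosphatidate phosphatase that mTORC1 phosphorylates, went from 7.02 ± 1.55 to 14.9 ± 3.62 CPM (1.09, standard error 0.23, adjusted p = 0.0200). Lower were *Rragd*, which encodes a Rag GTPase and went from 66.6 ± 9.91 to 38.9 ± 1.78 CPM (-0.78, standard error 0.11, adjusted p = 0.00380), and *Tfeb*, which encodes a lysosomal transcription factor held in the cytoplasm by mTORC1 (-0.71, standard error 0.16, adjusted p = 0.0251). *Eef2k*, the kinase that inhibits translation elongation, was lower by -0.48 (standard error 0.09, adjusted p = 0.0128). Smaller changes were those of *Itfg2*, a KICSTOR subunit, at 0.43, and *Prkab1*, an AMPK subunit, at -0.28.

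Lists of targets of known inputs to these genes differed in how many of their members were called. Of 12 glucocorticoid targets, 7 were higher in stress, beside 1.3% of all genes, and 10 in CORT, beside 3.64%, with none lower by edgeR or DESeq2 and 0 lower at an unadjusted p below 0.05. The kinase gene *Sgk1* changed by 3.60 ± 0.21 (standard error) on the log2 scale in stress and by 5.80 ± 0.59 in CORT. The corresponding values were 1.54 and 2.27 for *Tsc22d3*, and 1.72 and 2.42 for *Fkbp5*, a co-chaperone of the glucocorticoid receptor. *Fkbp5* was also higher in vehicle than in Ctrl (log2 fold change 1.42, standard error 0.12, adjusted p = 0.000400), where *Ddit4* did not differ detectably. It was the 1 target of the 12 that was higher there, beside 0.447% of all genes. Lower there were 3 (*Sgk1*, *Dusp1* and *Zfp36*), beside 0.352% of all genes, with 5 lower at an unadjusted p below 0.05. Of 12 p53 targets, *Trp53inp1* (1.87 and 3.83) and *Btg2* (0.82 and 1.56) were higher in both comparisons. *Cdkn1a*, which is on the list of glucocorticoid targets as well, was higher in CORT (1.95), and *Plk2* fell by 1.45 in stress. In stress 2 were thus higher and 1 lower, beside 1.3% and 0.59% of all genes. In CORT 3 were higher, beside 3.64%, with 0 lower by edgeR and 1 lower by DESeq2. *Trp53inp1* had a smaller response in stress than in CORT (-1.96, standard error 0.26, adjusted p = 0.00660). It was the 1 p53 target of 12 called in this comparison. Of the 12 glucocorticoid targets, 2 were called in the same direction, beside 0.194% of all genes. None of either list was called in the other direction by edgeR or DESeq2.

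Among the 14 targets of ATF4, none of the 12 tested in stress was called by edgeR or DESeq2, with 2 at an unadjusted p below 0.05. In CORT 2 of the 14 tested, *Chac1* and *Cebpb*, were lower by edgeR, beside 4.5% of all genes. DESeq2 called *Cebpb* lower and gave no adjusted p for *Chac1*. None was higher by either tool, with 1 higher at an unadjusted p below 0.05. *Cebpb*, a transcription factor gene, went from 38.0 ± 5.76 to 19.0 ± 1.14 CPM (log2 fold change -1.01, standard error 0.13, adjusted p = 0.00232), and it shares 312 exonic bases with the antisense gene *Tmem189*. *Chac1* was at 1.05 ± 0.304 CPM in vehicle and 0.0624 ± 0.0599 CPM in CORT, under the floor of 3 read pairs, so its fold change is not given. Of the hypoxia targets, none of the 10 tested in each comparison was called by edgeR or DESeq2, and 2 had an unadjusted p below 0.05 in each. Their median log2 fold change was -0.048 in stress and 0.034 in CORT. The lists are short and were written with earlier results known, so nothing is read from the difference between them.

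**Figure D4:**
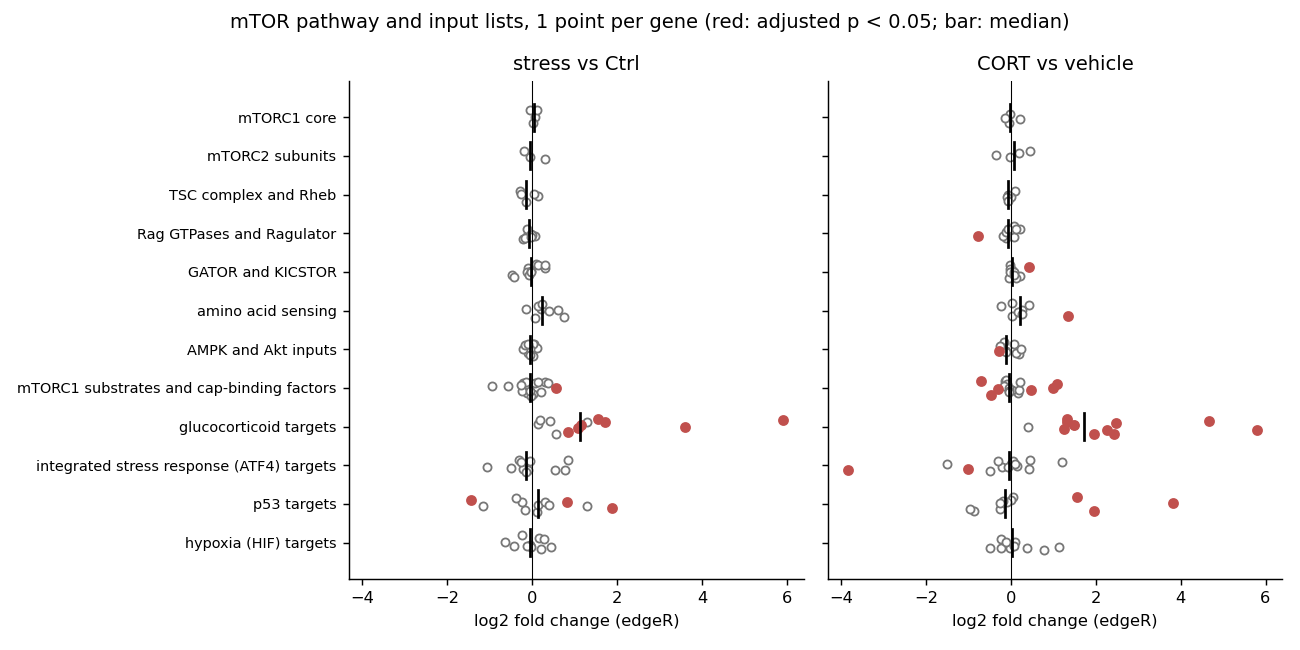
Log2 fold change (edgeR) of every tested gene of the 8 mTOR pathway lists and of 4 lists of input targets, for stress against Ctrl (left) and CORT against vehicle (right) on a shared axis; each point is a gene, red points passed an adjusted p of 0.05 and the black bar is the median of the list. Most pathway genes lie near 0, and the glucocorticoid targets have medians of 1.12 in stress and 1.72 in CORT.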

How the data were processed

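RNA of 12 libraries of sorted ISCs was analysed. The authors aligned 150-bp read pairs to mm10 with HISAT2 (2.2.1 in the submitters' processing notes, with StringTie 2.2.1) and deposited estimated counts of each gene in 1 table, plus FPKM, TPM and mean coverage (a signal not divided by library size) for each library. The methods of the paper differ from these notes, naming an earlier HISAT2 version and featureCounts for the counting. Coverage times transcript length gave 75 bases per count in genes with 1 transcript, so 4 counts stand for a read pair. Counting was not stated to use strand. 0 columns lacked a sample.

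The estimated counts, rounded, were tested with edgeR 4.0.16 (R 4.3.3, TMM, filterByExpr, quasi-likelihood F-test, Benjamini-Hochberg over all genes tested). The test was first run on simulated counts with 1 dispersion for all genes. That setting is simpler than these libraries, so nothing is read from it about error rates here. The standard error is the absolute log2 fold change divided by the square root of F. The floor of 12 counts (3 read pairs, 0.173 to 0.753 CPM) covers counting error only. Replicate libraries differed by more than sampling noise in all 12 pairs (chi-square per gene 8.84 to 87.0). This measure takes counts as independent, while 4 counts stand for a read pair. Sampling alone would thus give about 4, so the values overstate the excess. Named were all 9 inhibitors, at most 4 called genes per list and the 5 nearest to *Ddit4* over genes tested in both comparisons, with the other inhibitors left out. The members and lists were chosen with earlier results of these data known. Alternatives were DESeq2 1.42.0, its size factors, other filters, limma 3.58.1 on log2(FPKM + 1) and log2(FPKM + 0.1), all 12 libraries in 1 fit, and leaving out each library. *Ankhd1* and *Gm9920* were named after their values were seen.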

Additional observations from a re-analysis of the deposited data

Results flagged for a closer look

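The *Sesn1* response differed between the treatments by a test of the difference itself. The log2 change in stress less that in CORT was -1.74 (standard error 0.22, adjusted p = 0.00434, edgeR on all 12 libraries). The log2 fold change was 0.64 in stress and 2.38 in CORT, and every treated library was above its own controls. Over 18 alternatives the difference was -1.92 to -1.63 with adjusted p at most 0.0350. Vehicle and Ctrl also differed in this gene, by -0.76, and the cause of that difference was not tested.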

How the results depend on the processing

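No paired analysis was possible because Ctrl and stress share only the number 3 as a library of its own (the pools 1+2 and 4+5+6 have no single partner) and vehicle and CORT share only the number 5. In CORT and in the comparison of both responses, the number of inhibitors called in each direction was the same or within 1.5 times under all alternatives. In CORT *Ddit4* and *Sesn1* passed under all 13 alternatives each (log2 fold change 2.00 to 2.60 and 2.26 to 2.55). The log2 fold change of *Ddit4* in stress, given as a description, was 1.75 to 1.97. The 3 inhibitors higher in stress were 2 with both limma fits, 1 without a filter on low counts and 1 to 4 when a library was left out, with 4 only without stress 3. The 1 lower in stress was 0 without the filter and 0 with limma on log2(FPKM + 1) and log2(FPKM + 0.1), and 0 to 1 when a library was left out. Between vehicle and Ctrl, the 1 higher was 0 without the filter and 0 with all 12 libraries in the fit, and 0 to 1 when a library was left out, and the 1 lower was 2 with DESeq2, 0 with both limma fits and 0 to 2 when a library was left out. DESeq2 called 2 pathway genes higher in stress, and 1 higher and 2 lower between the responses, 1 and 5 input targets higher and lower between the responses, and 5 input targets lower in vehicle. Over all genes, 179 higher and 81 lower in stress became 404 and 212 with DESeq2, 35 and 11 without the filter, 58 and 31 with limma on log2(FPKM + 1), and 560 and 289 without stress 3. In CORT, 533 and 659 became 826 and 1042 with DESeq2 and 234 and 269 without CORT 4. The cause of these shifts was not tested. The median of all genes moved by less than 0.1 (log2) in each setting. The limits are 3 libraries per group, uneven depth and few reads for *Ddit4l* and *Eif4ebp3*.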
